A study of Mus musculus with 12 samples.

Results

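The genes that load peptides onto MHC class I were followed in Dkk3-null pancreatic tumor cells with and without recombinant DKK3. These are the heavy chain genes H2-K1 and H2-D1, the light chain gene B2m, the peptide transporter genes Tap1 and Tap2, the tapasin gene Tapbp, the immunoproteasome genes Psmb8, Psmb9 and Psmb10, and the transactivator gene Nlrc5. They were taken by gene name from the count table, which holds all 10 of them among 57186 named genes. Of the 10, 9 passed the filter on low counts, and Nlrc5 did not.

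DDKC cells are tumor cell lines from mice with homozygous loss of Dkk3 in every tissue (exon 2 is replaced) and Ptf1aCre, which drives recombination in the pancreatic lineage. RNA was sequenced from the 3 lines DDKC_9750, DDKC_9790 and DDKC_9804, grown in DMEM with 10% FBS, each left untreated or given rDKK3, the soluble recombinant protein. Every line and condition has 2 libraries, 12 in all. The concentration of rDKK3 and the treatment time of the RNA samples are not stated in the sources used here. All groups lack Dkk3, so the comparison is between added and absent DKK3 protein, and no Dkk3-wild-type cells were part of it.

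MHC class I molecules show peptides from inside the cell to cytotoxic T cells. Proteasomes cut proteins into peptides, the TAP transporter carries the peptides into the endoplasmic reticulum, and tapasin helps to fit them into the groove of a heavy chain held by beta-2-microglobulin. Interferons raise these genes together in most cells, the induced immunoproteasome subunits then take the place of the constitutive catalytic subunits in newly made proteasomes, and tumor cells often carry the pathway at a low level.

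Library depth lay between 7520741 and 24541083 counts without rDKK3 and between 3822987 and 11567095 counts with it, with medians of 14250180 and 6579896. Libraries of a line and condition were called first and second by the order of the numbers in their labels, which state no pairing. In each line the rDKK3 library was shallower than the untreated one, among first and among second libraries. Depth therefore ran with treatment, although the ranges overlap. A count of 3, taken as the floor, corresponded to between 0.127 and 0.755 CPM, the count scaled to the TMM-adjusted library total, in a library. Dkk3 had 1 count in 1 rDKK3 library of DDKC_9750 and 0 counts in the other 11. Keratin genes were high, with the summed level of 7 epithelial markers between 5040 and 9660 CPM untreated and between 3860 and 7940 CPM with rDKK3, although Epcam was at only 0.411 to 2.05 CPM. Krt7 and Krt19 were called lower with rDKK3 in all 3 lines, Krt7 to 0.471-fold in DDKC_9750 (edgeR within the line, adjusted p = 2.01e-08) and 0.414-fold in DDKC_9804 (adjusted p = 1.85e-08) and Krt19 to between 0.664-fold and 0.714-fold. Krt18 was also called lower in all 3 lines and Krt8 in DDKC_9750 and DDKC_9804, whereas Cdh1, the epithelial cadherin, rose 1.32-fold in DDKC_9750 (adjusted p = 0.000139) and 1.14-fold in DDKC_9804 (adjusted p = 0.0131). Of 8 leukocyte markers, 6 stayed at or under the floor, 2 of these (Adgre1 and Cd3e) at 0 counts in every library. Cd68 and Csf1r were detected, and the summed level of the 8 was 9.67 to 29.1 CPM untreated and 10.6 to 46.1 CPM with rDKK3. Cd68, a lysosomal protein of macrophages, rose from 2.65 to 6.74 CPM in DDKC_9804 (adjusted p = 2.4e-05) and from 23.2 to 38.1 CPM in DDKC_9790 (adjusted p = 0.00023), and was at 2.03 and 3.02 CPM in DDKC_9750 (adjusted p = 0.174). The summed level of 6 fibroblast markers was 7.28 to 12.9 CPM untreated and 5.75 to 11.6 CPM with rDKK3, that of 3 endothelial markers 1.23 to 15.3 and 0.877 to 17.4 CPM, and that of 4 acinar markers, 2 of them at 0 in every library, 0.656 to 11.9 and 0.575 to 11 CPM. Among these, the fibroblast marker Pdgfra fell from 1.70 to 0.682 CPM in DDKC_9750 (adjusted p = 0.0324) and rose from 0.828 to 4.27 CPM in DDKC_9804 (adjusted p = 7.06e-05), and the endothelial marker Kdr rose from 7.93 to 17.3 CPM in DDKC_9804 (adjusted p = 0.000165) and fell from 15.0 to 10.3 CPM in DDKC_9790 (adjusted p = 0.0242). The fibroblast markers Col1a1 in DDKC_9750 (adjusted p = 0.0377) and Pdgfrb in DDKC_9804 (adjusted p = 0.000591) were called lower. The part of these markers in the levels described here was not tested, and in a bulk sample a change in the share of cells and a change in RNA per cell cannot be told apart.

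Apart from a shift between first and second libraries that all lines shared, the 2 libraries of a line and condition agreed within counting noise (mean deviance 0.78 per degree of freedom over 12979 genes, 1.02 over 8 class I genes). The labels do not say whether they came from separate cultures. They were therefore summed and counted as 1 sample, so that n is 3 lines. Values given for single libraries show the precision of the measurement in 1 line and condition, not the spread between lines.

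In untreated cells the class I genes spanned a wide range of levels. Per kilobase of the canonical transcript, B2m was highest at 208 ± 51.1 CPM per kb (SD, n = 3 lines), followed by H2-K1 at 152 ± 75.0 and H2-D1 at 112 ± 29.7. Tapbp lay at 47.1 ± 13.8 CPM per kb and Psmb10 at 9.61 ± 1.49. Tap2 at 4.22 ± 0.959, Tap1 at 3.45 ± 2.48, Psmb9 at 1.21 ± 0.977 and Psmb8 at 1.12 ± 1.20 CPM per kb closed the order of the 9 tested genes. The lines overlapped between B2m and H2-K1, between H2-K1 and H2-D1, between Tap2 and Tap1, between Tap1 and Psmb9 and between Psmb9 and Psmb8, whereas H2-D1, Tapbp, Psmb10 and Tap2 followed each other without overlap. The heavy chains and their light chain were the abundant part of the pathway, and the transporter and the immunoproteasome subunits the sparse part.

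Of the 10 genes, 7 lie in the MHC region of chromosome 17 (GRCm39), within 1.35 Mb. Tapbp (chr17:34134873-34148266, + strand), H2-K1 (chr17:34214991-34219321, - strand) and H2-D1 (chr17:35481706-35486475, + strand) stand apart from a tight cluster. The cluster holds Psmb9 (chr17:34400961-34406738, - strand), Tap1 (chr17:34406527-34416199, + strand), Psmb8 (chr17:34416695-34420428, + strand) and Tap2 (chr17:34422501-34435295, + strand) within 34.3 kb. Tap1 and Psmb9 start from opposite strands and their gene models overlap by 212 bases, which the strand-specific counting separates. B2m is on chromosome 2 (chr2:121978167-121983564, + strand), and Psmb10 (chr8:106662367-106665076, - strand) and Nlrc5 (chr8:95160984-95253900, + strand) are on chromosome 8.

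The class I heavy chain and B2m promoters are classic interferon- and NF-kB-responsive promoters, and the short stretch that carries both kinds of element is shown for the 3 genes whose products form the class I molecule. RefSeq promoter windows (GRCm38.p6, 250 bases before to 50 bases after the start) were matched for 8 of the 10 genes, all but Tap2 and Nlrc5, in 9 windows. Where a gene had a further window, only the first was searched. The stretches were then placed on GRCm39 by exact match. Capitals mark matches on either strand to a kB-like pattern (GGGANNNCC, or a longer form of GGGA, 4 of any base and CC) and to an interferon-response-like pattern (GAANNGAAA, or a longer form of GAAA, 2 of any base and GAAA).
H2-K1: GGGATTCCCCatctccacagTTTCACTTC
H2-D1: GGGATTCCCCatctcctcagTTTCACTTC
B2m: GAAACTGAAAatGGGAAAGTCC
The H2-K1 stretch lies at chr17:34219403-34219431 (- strand), positions -110 to -82 from the RefSeq start, in no annotated exon. The H2-D1 stretch lies at chr17:35481900-35481928 (+ strand), positions -170 to -142, and the B2m stretch at chr2:121978029-121978050 (+ strand), positions -139 to -118. GENCODE M39 lays an exon of an H2-D1 and of a B2m transcript over the latter stretches. The B2m location given above comes with the deposited counts, and the B2m stretch lies before its start. The H2-K1 and H2-D1 stretches share 28 of 29 bases and differ by A17T, counted from the 5′ end with the H2-K1 base first. In H2-K1 and H2-D1 the kB-like element comes first and the interferon-response-like pattern reads on the opposite strand. In B2m the order is reversed, and the marked matches to both patterns read on the coding strand. A further B2m kB-like match on the opposite strand, at -126 to -117, overlaps the marked one and reaches past the end of the stretch.

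These letters are not rare. Among 32851 mouse promoter windows of the same length, 18.6% hold GGGANNNCC, 20.7% its longer form, 7.52% GAANNGAAA and 3.44% its longer form on either strand, and matches to the shorter and longer form of a pattern can overlap. Of the 8 matched genes, GGGANNNCC was in a window of 2 (H2-K1 and H2-D1) and its longer form in 3 (B2m, H2-K1 and H2-D1), and GAANNGAAA in a window of 2 (H2-K1 and H2-D1) and its longer form in 1 (B2m). The inverted CCAAT letters ATTGG, part of the module read by the RFX and NF-Y factors, were in a window of 6 of the 8 genes (B2m, Tapbp, H2-K1, Psmb9, Tap1 and H2-D1), and 37.4% of all windows hold them. The pattern TTCNNNGAA was found for Psmb8 only, and 8.3% of all windows hold it. The counts are of genes and the percentages of windows. A match is a description of the letters and not of a bound site.

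The first comparison asked whether rDKK3 shifted the class I genes one way across the 3 lines. With the line as block, edgeR called none of the 9 tested genes (adjusted p from 0.719 for Tap2 to 0.997 for Tapbp), and none of the 9 had an unadjusted p under 0.05. Over all 15214 genes tested, 1 gene was called, which is 0.00657%, and 1262 had an unadjusted p under 0.05. The called gene was Lcn2, named here after its value was seen. The median log2 fold change of the 9 class I genes was 0.06, against -0.01 over all genes tested. H2-K1 gave -0.12 ± 0.15 (SE), H2-D1 -0.07 ± 0.17, B2m 0.08 ± 0.17 and Tapbp -0.00 ± 0.34 on the log2 scale. The smallest two-sided p of an exact permutation test on 3 pairs is 0.25.

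The absence of a common shift came with differences of opposite sign in the lines. In DDKC_9750 all 9 tested genes were higher with rDKK3, with a median log2 fold change of 0.77. In DDKC_9804 all 9 were lower, with a median of -0.67, although Psmb8 there rests on 7 counts and its sign turned at equal depth. In DDKC_9790 all 9 were lower by smaller amounts, with a median of -0.18, although Tap1 there was at -0.01 and its direction turned when library order entered the model, and Tap1, Psmb8, Psmb9 and Psmb10 each turned there with 1 library of the line left out. The medians over all 15165 genes tested in the same fit were -0.02 in DDKC_9750, -0.01 in DDKC_9790 and -0.04 in DDKC_9804. The sequence higher, lower, lower over the 3 lines in this order was found in 13.9% of all genes tested.

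**Figure D1:**
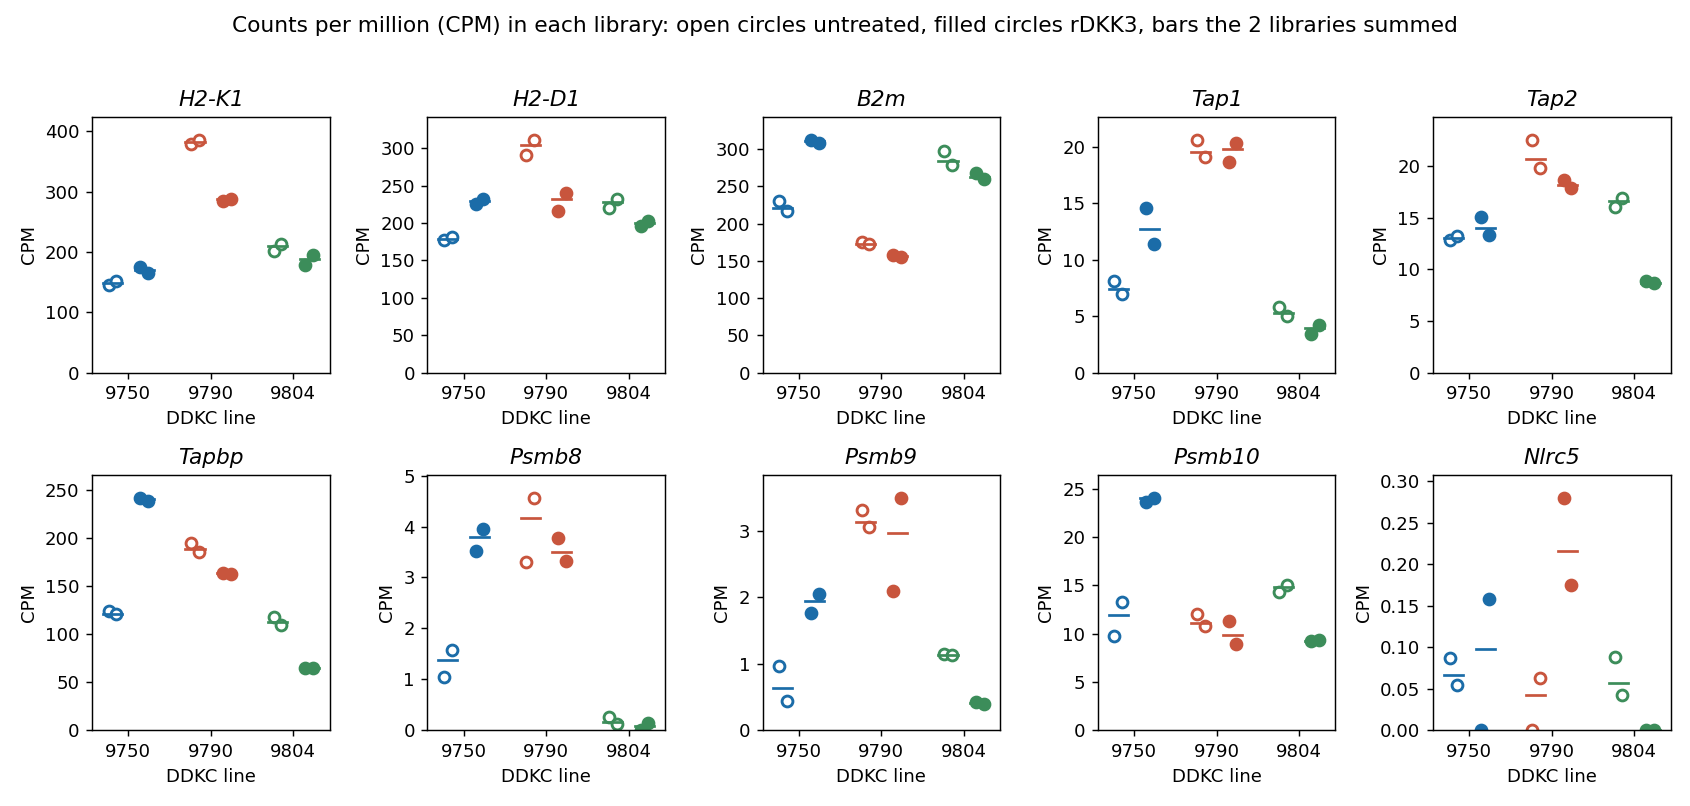
Each panel plots the CPM of 1 gene in every library, by DDKC line, with open circles for untreated libraries, filled circles for rDKK3 libraries and a bar for the 2 libraries summed; every axis starts at 0. Tapbp rises from 121 to 240 CPM in DDKC_9750 and goes from 112 to 64.8 CPM in DDKC_9804, while Nlrc5 stays under 0.3 CPM in every library.

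Counted against the spread between libraries by edgeR, 8 of the 9 genes were called higher in DDKC_9750, where 17.9% of all genes tested were called higher and 17.9% lower. None of the 9 was called lower there, and Tap2 was the gene not called. In DDKC_9790, 4 of the 9 were called lower (H2-K1, H2-D1, B2m and Tapbp) and none higher, with 13.9% of all genes called lower and 12.3% higher. In DDKC_9804, 7 of the 9 were called lower (all but Tap1 and Psmb8) and none higher, with 25.3% of all genes called lower and 20.1% higher. These tests compare the treated with the untreated libraries of a line, and their p-values measure the spread between libraries only, which may be technical. The calls that held under every alternative run were H2-D1, B2m, Tap1, Tapbp and Psmb10 in DDKC_9750, H2-K1 and H2-D1 in DDKC_9790, and Tap2 and Tapbp in DDKC_9804. With DESeq2 the lower calls numbered 2 in DDKC_9790 and 2 in DDKC_9804, and with libraries thinned to equal depth 3 in DDKC_9804. With 1 library left out at a time, 6 to 8 genes were called higher in DDKC_9750, 3 or 4 lower in DDKC_9790 and 2 to 6 lower in DDKC_9804. The count in DDKC_9804 was 2 without the second untreated or the second rDKK3 library of that line. It was 3 without its first rDKK3 library, either untreated library of DDKC_9790 or the second rDKK3 library of DDKC_9750, and 4 without the second rDKK3 library of DDKC_9790.

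**Figure D2:**
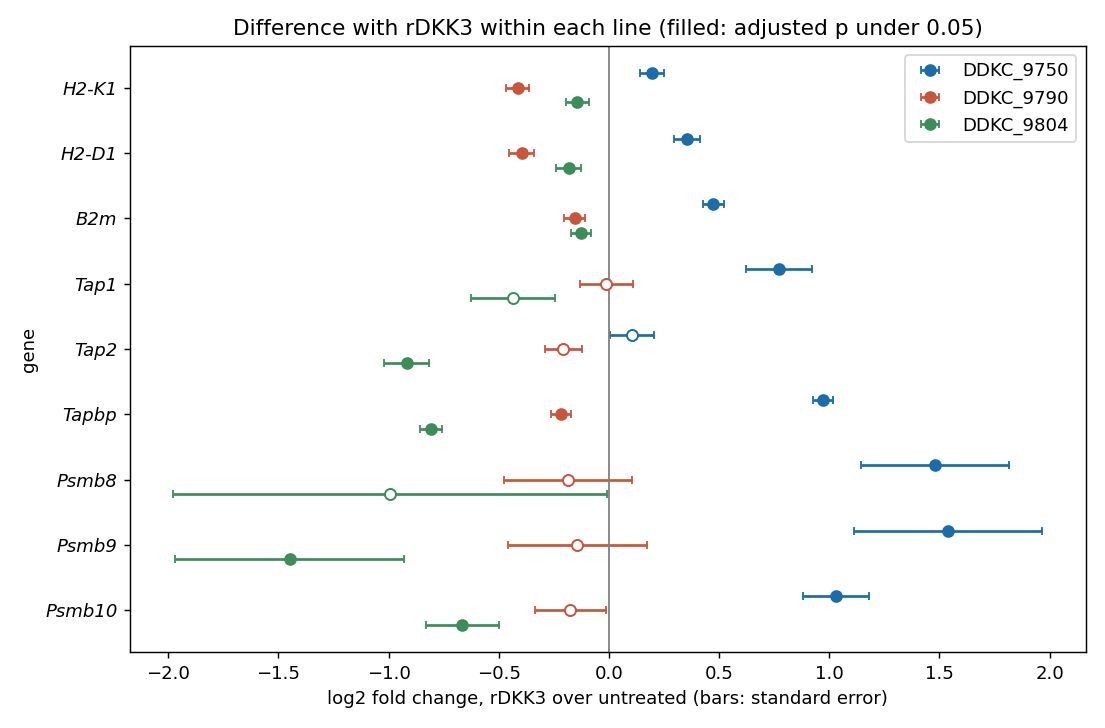
The points are log2 fold changes of rDKK3 over untreated for the 9 tested genes within each DDKC line, with standard errors between libraries as bars; filled points had an adjusted p under 0.05. Points for DDKC_9750 lie to the right of 0, from 0.10 for Tap2 to 1.54 for Psmb9, and points for DDKC_9804 lie to the left, down to -1.45 for Psmb9.

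The test of the line by rDKK3 interaction addressed the difference between the lines itself. It called all 9 genes, with adjusted p from 1.24e-07 for Tapbp to 0.0197 for Psmb8. The same test, which uses the spread between the libraries of a line and condition, called 49.3% of all genes tested. With DESeq2 it called 5 of the 9, without Tap1 (adjusted p = 0.0725), Tap2 (adjusted p = 0.0609), Psmb8 (adjusted p = 0.267) and Psmb9 (adjusted p = 0.141). With 1 library left out at a time it called 7 to 9, and the calls then lost were those of Psmb8 and Psmb9.

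H2-K1 and H2-D1 encode the classical heavy chains that hold the peptide. H2-K1 was at 145 and 151 CPM in the untreated and at 175 and 166 CPM in the rDKK3 libraries of DDKC_9750. In DDKC_9790 it was at 378 and 385 CPM untreated and at 284 and 288 CPM with rDKK3. In DDKC_9804 it was at 201 and 213 CPM untreated and at 179 and 195 CPM with rDKK3. The libraries of the 2 conditions did not overlap in any line, and the level in DDKC_9790 was above that of the other lines with and without rDKK3. H2-K1 rose 1.15-fold in DDKC_9750 (log2 0.20 ± 0.05, adjusted p = 0.0161), a call lost when the low-count filter was left out (adjusted p = 0.126) or without the first untreated or the first rDKK3 library of the line (adjusted p up to 0.141). It fell to 0.75-fold in DDKC_9790 (log2 -0.41 ± 0.05, adjusted p = 0.000417) and to 0.905-fold in DDKC_9804 (adjusted p = 0.0471, lost under 3 of the 5 alternatives that kept all libraries and with 10 of the 12 libraries left out in turn).

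H2-D1 differed with rDKK3 in the same direction as H2-K1 in each line. It was at 177 and 181 CPM untreated against 226 and 232 CPM with rDKK3 in DDKC_9750. Levels in DDKC_9790 were 291 and 310.4 CPM untreated against 216 and 240 CPM with rDKK3, and those in DDKC_9804 were 220.4 and 233 CPM against 196 and 203 CPM. Again the treated libraries stood clear of the untreated ones in each line. H2-D1 rose 1.28-fold in DDKC_9750 (adjusted p = 0.000826), and fell to 0.76-fold in DDKC_9790 (adjusted p = 0.000894) and 0.881-fold in DDKC_9804 (adjusted p = 0.0248, or 0.0256 to 0.302 with 1 library left out). With rDKK3 the lines came closer for H2-D1, the highest line being 1.70-fold above the lowest untreated and 1.16-fold with rDKK3. For H2-K1 the same ratio was 2.58 untreated and 1.70 with rDKK3. Of the 50-base windows in the canonical transcripts, 8.79% in H2-K1 and 14.2% in H2-D1 also occur in transcripts of other genes, most often H2-D1 for H2-K1 and H2-Q1 for H2-D1, so the counts of the heavy chains carry some uncertainty from read assignment.

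B2m encodes beta-2-microglobulin, the light chain that every class I heavy chain needs to reach the surface. It was at 230 and 216 CPM untreated against 312 and 308 CPM with rDKK3 in DDKC_9750. B2m in DDKC_9790 was at 176 and 173 CPM against 158 and 155 CPM, and in DDKC_9804 at 298 and 278 CPM against 267 and 260.3 CPM. The rise in DDKC_9750 was 1.39-fold (log2 0.47 ± 0.05, adjusted p = 2.43e-05). The differences in the other lines were to 0.898-fold and 0.916-fold, with adjusted p = 0.0354 and 0.0465, and these calls were lost with RLE scaling, DESeq2 and equal depth. The order of the lines was unlike that of the heavy chains, since B2m was lowest in DDKC_9790. The summed H2-K1 and H2-D1 level per kb was 2.38 times that of B2m in untreated DDKC_9790, but 0.866 times in DDKC_9750 and 0.905 times in DDKC_9804. With rDKK3 these ratios were 1.99, 0.747 and 0.873.

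Tap1 and Tap2 encode the subunits of the transporter that brings peptides to the class I molecule. Tap1 was at 8.14 and 6.94 CPM untreated against 14.6 and 11.4 CPM with rDKK3 in DDKC_9750. The DDKC_9790 libraries gave 20.6 and 19.1 CPM against 18.6 and 20.4 CPM, and the DDKC_9804 libraries 5.84 and 4.98 CPM against 3.45 and 4.26 CPM. The conditions overlapped in DDKC_9790 only. Tap1 rose 1.71-fold in DDKC_9750 (log2 0.77 ± 0.15, adjusted p = 0.00259). In DDKC_9804 the log2 fold change was -0.44 ± 0.19 and the call was not made (adjusted p = 0.128).

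Tap2 was called in DDKC_9804, where Tap1 was not, and the difference between the genes was not tested. Tap2 was at 12.9 and 13.2 CPM untreated against 15.1 and 13.3 CPM with rDKK3 in DDKC_9750, a log2 fold change of 0.10 ± 0.10 (adjusted p = 0.65). In DDKC_9790 it was at 22.5 and 19.9 CPM against 18.6 and 17.8 CPM (adjusted p = 0.162). In DDKC_9804 it fell from 16.0 and 16.9 CPM to 8.84 and 8.65 CPM, to 0.529-fold (log2 -0.92 ± 0.10, adjusted p = 4.97e-05). Per kb, Tap2 was 1.38 times Tap1 in untreated DDKC_9750 and 0.865 times with rDKK3. The ratio went from 0.826 to 0.719 in DDKC_9790 and from 2.47 to 1.72 in DDKC_9804, so it was lower with rDKK3 in each line. That ratio was not tested.

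Tapbp encodes tapasin, which bridges TAP and the empty class I molecule. It was at 124 and 121 CPM untreated against 241 and 238 CPM with rDKK3 in DDKC_9750. Tapbp in DDKC_9790 was at 195 and 185 CPM against 164 and 162 CPM, and in DDKC_9804 at 118 and 109 CPM against 64.7 and 65.0 CPM. The 2 libraries of each condition lay close together and the conditions stood well apart. Tapbp rose 1.96-fold in DDKC_9750 (log2 0.97 ± 0.05, adjusted p = 1.52e-07) and fell to 0.571-fold in DDKC_9804 (log2 -0.81 ± 0.05, adjusted p = 9.06e-07). In DDKC_9790 it fell to 0.859-fold (adjusted p = 0.00621), a call that DESeq2 did not make (adjusted p = 0.0646). For Tapbp the highest line was 1.67-fold above the lowest untreated and 3.70-fold with rDKK3, the latter the widest gap with rDKK3 among H2-K1, H2-D1, B2m and Tapbp. In GENCODE M39 an exon of Zbtb22 overlaps Tapbp on the same strand.

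Psmb8, Psmb9 and Psmb10 encode the catalytic subunits that replace Psmb5, Psmb6 and Psmb7 in the immunoproteasome. Psmb8 was at 1.05 and 1.57 CPM untreated against 3.52 and 3.95 CPM with rDKK3 in DDKC_9750, and at 3.31 and 4.56 CPM against 3.78 and 3.32 CPM in DDKC_9790. In DDKC_9804 it had 6 counts untreated and 1 count with rDKK3. Psmb8 rose 2.79-fold in DDKC_9750 (log2 1.48 ± 0.34, adjusted p = 0.00601), a call that DESeq2 did not make (adjusted p = 0.113) and that was lost without the second rDKK3 library of the line (adjusted p = 0.0708). In DDKC_9804 the ratio of rDKK3 to untreated was 0.48 with an exact 95% counting interval from 0.0104 to 3.95, so neither direction was detectable there.

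Psmb9, whose start faces that of Tap1, was also sparse. It was at 0.963 and 0.434 CPM untreated against 1.76 and 2.06 CPM with rDKK3 in DDKC_9750, from 19 and 20 counts in all. In DDKC_9790 it was at 3.31 and 3.06 CPM against 2.10 and 3.50 CPM, and in DDKC_9804 at 1.15 and 1.14 CPM against 0.431 and 0.399 CPM, from 40 and 5 counts. The conditions overlapped in DDKC_9790 and not in the other lines. The rise in DDKC_9750 was 2.91-fold (adjusted p = 0.0173) and the fall in DDKC_9804 was to 0.366-fold (adjusted p = 0.0445), with an exact counting interval of that ratio from 0.111 to 0.912. At equal depth neither was called (adjusted p = 0.339 and 0.418), and with 1 library left out the adjusted p reached 0.143 and 0.253.

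Psmb10 was the most abundant of the 3 immunoproteasome genes. It was at 9.71 and 13.3 CPM untreated against 23.7 and 24.04 CPM with rDKK3 in DDKC_9750. In DDKC_9790 it was at 12.01 and 10.8 CPM against 11.3 and 8.92 CPM, and in DDKC_9804 at 14.3 and 15.1 CPM against 9.27 and 9.31 CPM. Psmb10 rose 2.04-fold in DDKC_9750 (log2 1.03 ± 0.15, adjusted p = 0.000383) and fell to 0.63-fold in DDKC_9804 (adjusted p = 0.0077, or 0.0898 with DESeq2 and up to 0.0861 with 1 library left out). In untreated cells its lines lay within 1.33-fold of each other, against 2.58-fold with rDKK3.

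The constitutive counterparts stayed close to their untreated levels. Within the lines, the log2 fold change of Psmb5 was between -0.18 and -0.02, that of Psmb6 between -0.26 and -0.09 and that of Psmb7 between -0.23 and -0.04. Psmb6 was called lower in DDKC_9790 (adjusted p = 0.0185) and DDKC_9804 (adjusted p = 0.000811), and Psmb7 in DDKC_9790 (adjusted p = 0.00882). As a share of the pair on the per kb scale, Psmb8 was 3.36% of Psmb8 plus Psmb5 in untreated and 8.98% in rDKK3-treated DDKC_9750. It was 10.2% and 9.44% in DDKC_9790, and 0.609% and 0.339% in DDKC_9804, the latter from 1 count of Psmb8. The share of Psmb9 in Psmb9 plus Psmb6 went from 0.516% to 1.65% in DDKC_9750, from 2.24% to 2.37% in DDKC_9790 and from 0.812% to 0.349% in DDKC_9804. The share of Psmb10 in Psmb10 plus Psmb7 went from 10.1% to 18.8%, from 7.83% to 8.15% and from 10.9% to 7.84% in the same order. In every sample the constitutive subunit made up most of the pair.

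**Figure D3:**
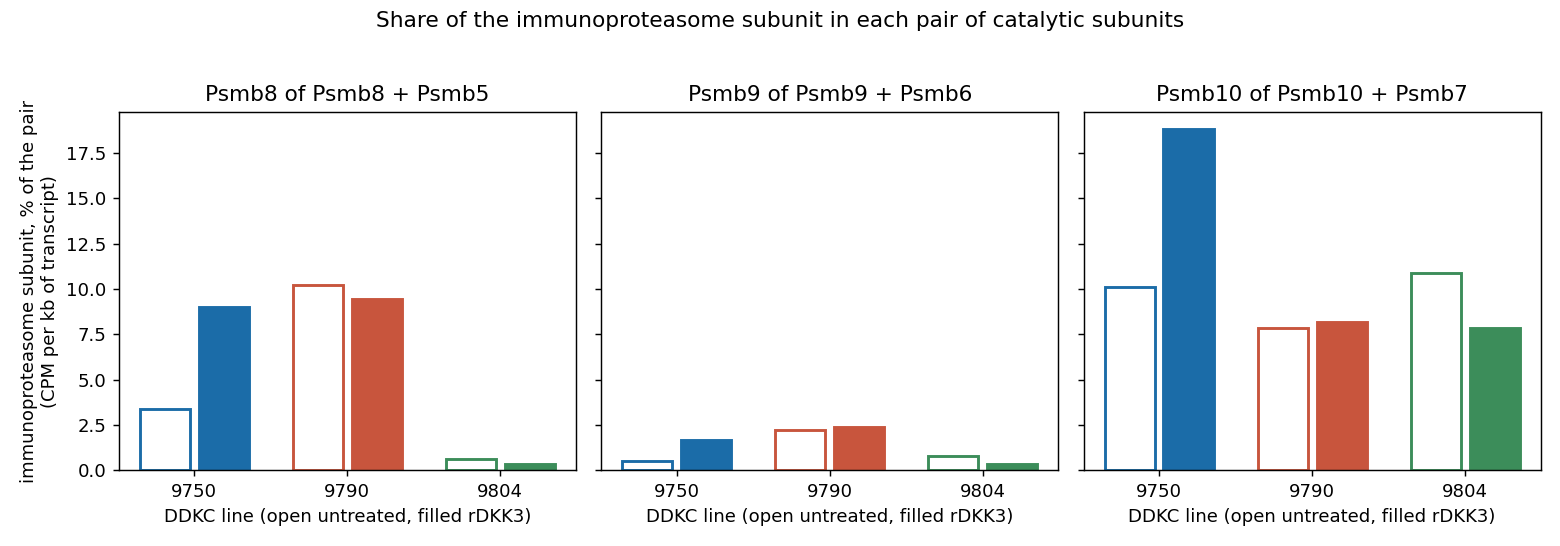
The bars give the immunoproteasome subunit as a percentage of the pair it forms with its constitutive counterpart, from CPM per kb of transcript, for each DDKC line untreated (open) and with rDKK3 (filled), without error bars since each bar is 1 sample. In DDKC_9750 the filled bars are higher in all 3 pairs, with Psmb10 reaching 18.8%, and in DDKC_9804 they are lower.

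Nlrc5 encodes the transactivator that binds class I promoters together with the RFX and NF-Y factors. It had 10 counts in all 12 libraries together, at most 2 in a library and none in 4 libraries. The summed samples held 2, 1 and 2 counts in untreated and 1, 4 and 0 counts in rDKK3-treated DDKC_9750, DDKC_9790 and DDKC_9804. Over all libraries this is 0.0774 CPM, with an exact 95% interval from 0.0371 to 0.142. No difference between lines or conditions was detectable at this depth, and H2-K1, H2-D1 and B2m were abundant in the same libraries.

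The lines themselves also differed in the class I genes. Of the 9 tested genes, 3 were called by the test of the line (H2-K1, adjusted p = 0.0231, Tap1, adjusted p = 0.0207, and Psmb8, adjusted p = 0.0187), against 32.2% of all genes tested, so the share among the class I genes was near the background. H2-K1 was higher in DDKC_9790 than in DDKC_9750 (log2 difference 1.06, adjusted p = 0.0181, where 25.2% of all genes were called) and lower in DDKC_9804 than in DDKC_9790 (log2 difference -0.75, adjusted p = 0.0459, where 20.3% were called). Tap1 was lower in DDKC_9804 than in DDKC_9790 (log2 difference -2.06, adjusted p = 0.0169). Psmb8 was lower in DDKC_9804 than in DDKC_9790 (log2 difference -4.63, adjusted p = 0.0149) and than in DDKC_9750 (log2 difference -3.91, adjusted p = 0.025, where 16.3% of all genes were called), with 7 counts in all in DDKC_9804. For H2-D1, B2m, Tap2, Tapbp, Psmb9 and Psmb10 no pair of lines was called. The count of 3 became 6 without DDKC_9750, 1 without DDKC_9790 and 2 without DDKC_9804, where the count over all genes went from 4899 to 5173, 1502 and 4767. Without DDKC_9790 the adjusted p was 0.383 for H2-K1 and 0.197 for Tap1, and without DDKC_9804 it was 0.298 for Psmb8.

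Other genes of the pathway were read from written lists. Their counts of calls stand against the shares over all genes tested, 17.9% higher and 17.9% lower in DDKC_9750, 12.3% and 13.9% in DDKC_9790, and 20.1% and 25.3% in DDKC_9804. Among 18 further class I heavy chain genes, 11 were tested within the lines, with 3 called higher and none lower in DDKC_9750, none higher and 4 lower in DDKC_9790, and 2 higher and 3 lower in DDKC_9804, the last near the shares over all genes. H2-T23, which encodes the nonclassical molecule Qa-1, was at 36.3 CPM untreated and 40.2 CPM with rDKK3 in DDKC_9750, and it fell from 138 to 92.9 CPM in DDKC_9790 (adjusted p = 0.00176) and from 76.5 to 46.9 CPM in DDKC_9804 (adjusted p = 0.000342). Cd1d1, a lipid-presenting relative, rose in DDKC_9750 from 4.30 to 8.29 CPM (adjusted p = 0.00159). Fcgrt, the neonatal Fc receptor chain, fell in DDKC_9804 from 47.3 to 21.4 CPM (adjusted p = 5.88e-07). H2-Q10 fell in DDKC_9790 from 8.42 to 2.21 CPM (adjusted p = 0.0015) and was called higher in DDKC_9804, at 0.0856 CPM untreated and 0.493 CPM with rDKK3, values at or near the floor.

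The peptide loading and trimming list (13 genes, all tested) did not share one direction. In DDKC_9750, 6 were called higher and 2 lower, in DDKC_9790 1 and 4, and in DDKC_9804 5 and 4. Its medians were 0.08, -0.09 and 0.07 on the log2 scale in that order. Tapbpl, a tapasin-related peptide editor, rose in DDKC_9750 with a log2 fold change of 0.85 (adjusted p = 0.000989) and was at 0.07 in DDKC_9804 (adjusted p = 0.784). Hspa5, the main endoplasmic reticulum chaperone, rose in DDKC_9750 (log2 0.54) and DDKC_9804 (log2 0.37) and fell in DDKC_9790 (log2 -0.16). Blmh, a cytosolic peptidase, fell in DDKC_9790 (log2 -0.64) and DDKC_9804 (log2 -0.44).

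Of 8 proteasome counterparts and activators, 1 was called higher in DDKC_9750, 1 higher and 3 lower in DDKC_9790, and 2 higher and 3 lower in DDKC_9804. Psme1, a subunit of the PA28 activator that acts with the immunoproteasome, rose in DDKC_9750 (log2 0.21, adjusted p = 0.00442) and fell in DDKC_9790 (log2 -0.16, adjusted p = 0.0261) and DDKC_9804 (log2 -0.71, adjusted p = 1.96e-06), the same signs as the 9 class I genes. Psme3, the nuclear activator, was at 0.01 in DDKC_9750 and rose in DDKC_9790 (log2 0.44) and DDKC_9804 (log2 0.32). Pomp, the assembly factor, fell in DDKC_9804 (log2 -0.57, adjusted p = 3.61e-05).

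Of 23 regulators of class I transcription, 22 were tested within the lines, with 11 called higher and 2 lower in DDKC_9750, 2 and 3 in DDKC_9790, and 3 and 6 in DDKC_9804. Irf1, an interferon-induced activator of class I promoters, rose from 43.3 to 59.3 CPM in DDKC_9750 (adjusted p = 0.000197) and had log2 fold changes of -0.11 and -0.09 in the other lines, neither of them called.

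Receptors and feedback genes of the list were also higher in DDKC_9750. Ifnar2, a chain of the type I interferon receptor, rose there from 14.3 to 52.3 CPM (log2 1.87, adjusted p = 3.04e-07). Socs1, a feedback inhibitor of JAK kinases, rose there from 2.33 to 5.65 CPM (adjusted p = 0.000787). Rfx5, the DNA-binding RFX subunit that works with Nlrc5, rose in DDKC_9750 (log2 0.51, adjusted p = 0.000552) and in DDKC_9790 (log2 0.37, adjusted p = 0.00312), where the class I genes were lower, and was at 0.14 in DDKC_9804 (adjusted p = 0.379). In the test with the line as block none of these genes was called.

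Of 16 interferon response genes outside class I, 10 were tested within the lines, with 8 called higher and none lower in DDKC_9750, none in either direction in DDKC_9790, and none higher and 5 lower in DDKC_9804. Their medians were 1.45, -0.03 and -0.85 on the log2 scale. Several of the calls in DDKC_9750 rest on few counts. Isg15 had 18 counts untreated and 26 with rDKK3, Ifit1 13 and 15, Ifit3 20 and 22, and Mx1 10 and 19. Gbp2, an interferon-induced GTPase, rose from 4.13 to 21.4 CPM in DDKC_9750 (log2 2.34, adjusted p = 1.08e-06) and was not called in the other lines. Irgm1, another such GTPase, rose in DDKC_9750 (log2 0.33, adjusted p = 0.00909) and fell in DDKC_9804 (log2 -0.75, adjusted p = 8.4e-05). Bst2, the virus-tethering protein tetherin, was not called in any line, with 24.7 to 40.9 CPM untreated and 26.2 to 41.1 CPM with rDKK3. Class II presentation genes were low, with H2-Aa and H2-Oa at 0 counts in every library and 1 of 8 genes tested within the lines. H2-DMa, a chain of the peptide editor of class II, was at 0.567 to 1.06 CPM untreated and 0.575 to 0.780 CPM with rDKK3, and H2-DMb1, the other chain, at 1.55 and 1.35 CPM in DDKC_9790.

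**Figure D4:**
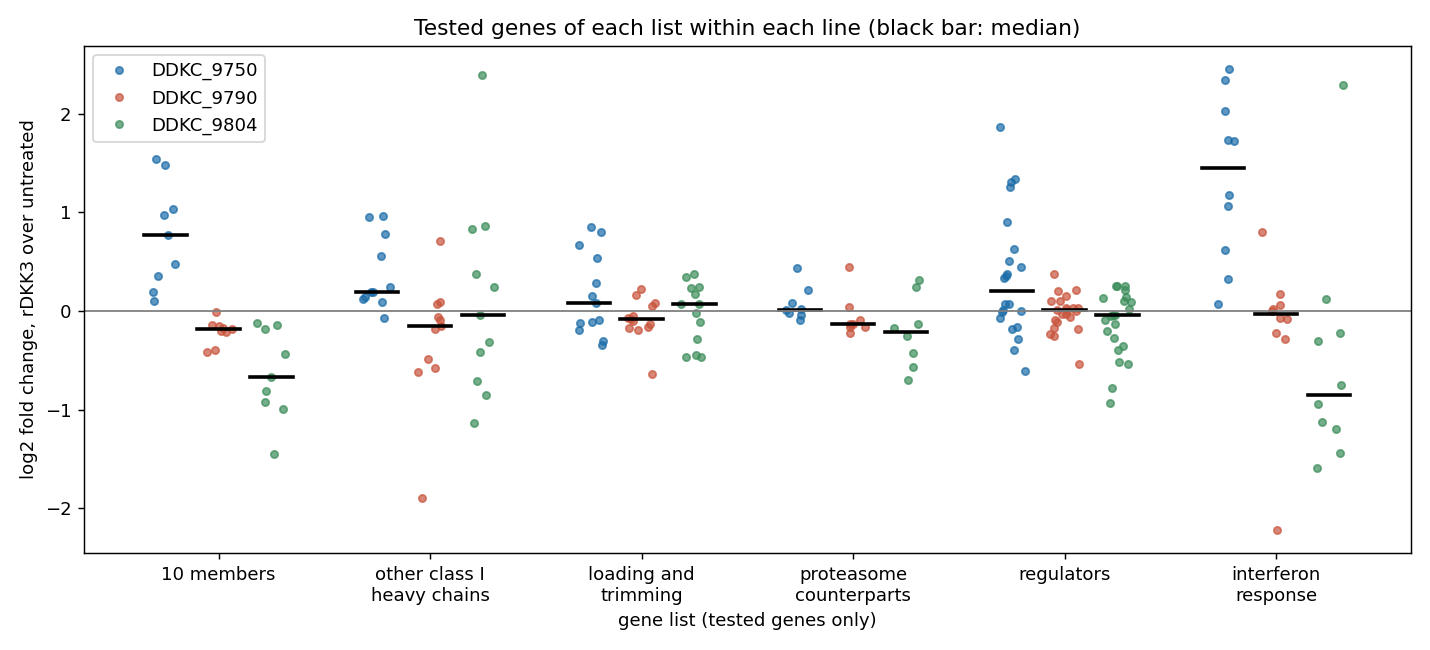
Each point is the log2 fold change of 1 tested gene, rDKK3 over untreated, within a DDKC line, grouped by gene list, and black bars mark the medians. The class I genes have medians of 0.77, -0.18 and -0.67 in DDKC_9750, DDKC_9790 and DDKC_9804, the interferon response genes 1.45, -0.03 and -0.85, and the loading and trimming genes 0.08, -0.09 and 0.07, with single genes on both sides of 0.

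The genes with the profile most like the mean of the 9 class I genes were sought over the 6 summed samples, among 12754 genes outside the lists. They were Il17rc, Kbtbd11, Skap2, Gm37844 and Sat1, with root mean square differences in centred log2 CPM from 0.112 to 0.137. The class I mean itself was at -0.28, 0.61 and -0.33 untreated and at 0.48, 0.41 and -0.90 with rDKK3 in DDKC_9750, DDKC_9790 and DDKC_9804. Tapbp lay closest to this mean (0.186) and Psmb8 farthest from it (1.39), with B2m at 0.777. All 9 genes, these included, enter the mean with equal weight. Psmb8 enters it in DDKC_9804 at -2.26 untreated and -2.85 with rDKK3, from 6 counts and 1 count. The mean, the similar genes and this order therefore depend in part on a gene near the floor, and a mean without Psmb8 was not tested.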

How the data were processed

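Per the labels and the methods of the study, the authors sequenced stranded libraries as 50-base pairs, aligned them with STAR 2.7.9a to GRCm39 and counted them by strand on GENCODE M32 genes with summarizeOverlaps. They deposited raw counts per gene, without normalization, for 57278 features, of which 92 unnamed features held 0 counts and were left out. The members and lists were chosen with earlier results of these data known. The rule names all 10 members, Psmb5, Psmb6, Psmb7, Irf1, Rfx5, H2-T23 and Dkk3, in each further list the genes called and the 3 with the largest log2 fold change in the fit with the line as block among genes whose mean log2 CPM was 1 or more, and the 5 genes of most similar profile.

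Counts of the 2 libraries of a line and condition were summed (6 samples) and tested with edgeR 4.0.16 (R 4.3.3; TMM, filterByExpr, quasi-likelihood F test, line and condition in the model). Differences within lines and their interaction used 12 libraries in 6 groups. P-values were adjusted by Benjamini-Hochberg over all genes tested, with a threshold of 0.05. Pairs of lines, and each single library left out of the tests within lines, were additions after the data were seen; a lone library is then assumed to vary like the other groups. Pairing rests on the line named in the labels, and same-line samples deviated together (correlations 0.786 to 0.865). Alternatives were DESeq2 1.42.0, RLE scaling, no filter, no line in the model, single libraries, library order, equal depth and leaving out lines or all first or second libraries. Standard errors derive from the F statistic, and the tests were checked on simulated counts. Exact Poisson intervals and floors cover counting error only. Levels per kb used canonical transcript lengths of GENCODE M39. Some alleles and list genes are not reported here.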

Additional observations from a re-analysis of the deposited data

Results flagged for a closer look

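The difference with rDKK3 depended on the line for all 9 tested class I genes by edgeR's interaction test against the spread between libraries, a test that called 49.3% of all genes. The gap between the highest and the lowest line, in log2 fold change, was 0.611 for H2-K1, 0.751 for H2-D1 and 0.629 for B2m, with the lowest value in DDKC_9790. It was 1.21 for Tap1, 1.02 for Tap2, 1.78 for Tapbp, 2.47 for Psmb8, 2.99 for Psmb9 and 1.70 for Psmb10, with the lowest value in DDKC_9804. The highest value was in DDKC_9750 for each of the 9.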

How the results depend on the processing

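No class I gene was called in the fit with the line as block under any alternative, with a line or all first or second libraries left out included. Over all genes that fit called 1 gene, against 2744 with 12 libraries as separate samples, 97 with DESeq2, 90 without the filter and 0 at equal depth, and 0 to 2 with a line, or all first or second libraries, left out. With no replicate block, the line being the block, it called 0. The line changed no call of a class I gene.

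Line differences were called for 4899 genes, for 11790 with separate libraries, and for 1502 to 5173 with a line, or the first or second libraries, left out. Class I genes so called numbered 3, against 8 with separate libraries, 5 without the filter and 1 to 6 with these left out.

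Within the lines, DESeq2 called 1466 genes higher and 1328 lower in DDKC_9750, 471 and 804 in DDKC_9790, and 1831 and 1886 in DDKC_9804. At equal depth, 1705 were lower in DDKC_9750, 829 higher and 1075 lower in DDKC_9790, and 2465 lower in DDKC_9804. With library order in the model, 2829 were higher and 3237 lower in DDKC_9790. The interaction was called for 3678 genes with DESeq2 and 4888 at equal depth. Class I genes called lower with DESeq2 numbered 2 in DDKC_9790 and 2 in DDKC_9804, where equal depth left 3. DESeq2 left 5 of the 9 interaction calls. The causes were not tested. Leaving out all first or all second libraries leaves no residual degrees of freedom within the lines and was not run. Single libraries were left out instead, a choice made after the data were seen. Genes then called lower numbered 1721 to 2895 in DDKC_9750, 1334 to 2263 in DDKC_9790 and 2360 to 3929 in DDKC_9804, and genes called higher in DDKC_9790 numbered 836 to 1794. Class I genes called lower in DDKC_9804 numbered 2 to 6. In DDKC_9790, log2 fold changes ranged from -0.091 to 0.011 for Tap1, -0.40 to 0.076 for Psmb8, -0.60 to 0.11 for Psmb9 and -0.37 to 0.0046 for Psmb10, so the direction of these 4 turned. Of 324 such within-line values, 47 lost their call, none gained one and 5 turned.

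With the line as block, leaving out a line, or the first or second libraries, gave log2 fold changes from -0.28 to 0.035 for H2-K1, -0.29 to 0.098 for H2-D1, -0.13 to 0.20 for B2m, -0.17 to 0.38 for Tap1, -0.49 to 0.39 for Tapbp, -0.36 to 0.89 for Psmb8, -0.55 to 0.63 for Psmb9 and -0.42 to 0.43 for Psmb10, so the direction of these 8 genes turned. H2-K1 (0.035) and H2-D1 (0.098) turned without DDKC_9790, and B2m (-0.13), Tap1 (-0.17), Psmb8 (-0.36), Psmb9 (-0.55) and Psmb10 (-0.42) without DDKC_9750. Psmb9 (-0.32) also turned without all second libraries and Psmb10 (-0.018) without all first ones. Tapbp was at 0.020 without all first libraries, 0.39 without DDKC_9804 and 0.11 without DDKC_9790. Tapbp, at -0.0045 in the report's fit, was also at 0.15 with no replicate block, 0.00053 with DESeq2 and 0.0028 with RLE scaling. Within lines, Tap1 in DDKC_9790 was at 0.0017 with library order, and Psmb8 in DDKC_9804, which had 7 counts in all, was at 2.34 at equal depth. Of 132 within-line values under the alternatives with all libraries, 18 lost their call and these 2 turned.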
